A study of Mus musculus with 12 samples.

Results

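Chemokine ligands are small secreted or membrane-bound proteins that attract white blood cells, and their mRNA was measured here in whole mouse spinal cord by RNA sequencing. The members were the protein-coding genes named Ccl or Cxcl with a number, together with Cx3cl1, Xcl1, Pf4 and Ppbp. This gave 46 gene rows of 54532, with 40 distinct symbols, of which 39 rows lay on chromosomes and 7 on unplaced scaffolds that carry copies of Ccl27a, Ccl19, Ccl21a, Ccl21b and Ccl21c. A count in at least 1 library was found for 39 rows, and 27 rows reached a group mean of 1 CPM (counts per 1e6) in 1 group or more. Cxcl11 was not a member because the table lists it as a polymorphic pseudogene.

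There were 4 groups of 3 libraries from C57BL/6 mice aged 2 to 3 months. Mice with a conditional knockout of the dopamine receptor gene Drd2 (Drd2mGFAP, here cKO) and their littermates with the label wt (here control) were sampled at day 17 of experimental autoimmune encephalomyelitis (EAE) and without disease (basal). The cKO label names GFAP, whose promoter is active in astrocytes, and the sources used here do not name the Cre line, the deleted part of Drd2 or the way EAE was induced. EAE is an autoimmune attack on myelin used to model multiple sclerosis in mice.

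Chemokines bind G protein-coupled receptors on leukocytes and guide them along a gradient, and they are named by the spacing of their first cysteines (C, CC, CXC or CX3C). Inflammatory ligands are switched on by cytokines and microbial signals and bring monocytes, neutrophils and activated T cells into tissue, while homeostatic ligands are made all the time and place cells within organs. In the healthy spinal cord neurons make Cx3cl1, whose receptor Cx3cr1 marks microglia, and in EAE ligands of CCR2 and CXCR3 are known for the entry of monocytes and T cells.

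The libraries held 15128913 to 17592105 counts, so that 1 count was worth less than 0.1 CPM. Levels are given as CPM scaled with TMM factors, which correct for library composition, and levels of different genes are compared as TPM (transcripts per 1e6), which also divide by gene length. Drd2 was at 6.72, 12.4 and 19.4 CPM in cKO EAE and 8.87, 8.99 and 9.61 CPM in control EAE, against 17.6, 33.3 and 34.7 CPM in cKO basal and 26.5, 19.4 and 19.7 CPM in control basal, with the 3 values of a group in the order of libraries 1, 2 and 3 here and throughout. In both states the cKO mean was above the control mean and the genotypes overlapped. Drd2 mRNA of cells other than astrocytes is counted too, and cKO and control below mean the libraries so labelled. The libraries of both states differed in sex, with Xist at 0 to 0.292 CPM of the library total in EAE and 309 to 796 CPM in basal libraries, and the Y-linked Ddx3y at 70.3 to 77.0 CPM in EAE and 0 in basal libraries. Disease and sex therefore cannot be told apart in any comparison of EAE with basal. Within their groups a pair of libraries stood apart. They were cKO basal 2, with 17220 genes detected where the others had 24303 to 26056, and cKO EAE 3, whose ligand levels lay near the basal ones. In cKO basal 2 summed oligodendrocyte markers (60953 CPM) and erythrocyte markers (740 CPM) were above those of every other library. Its astrocyte markers (3863 CPM) were below those of every other library. Values that rest on cKO basal 2 or cKO EAE 3 are given with and without them, or library by library. As cKO EAE 3 was singled out by its ligand levels, calls made without it rest on a choice from those same values. Astrocyte, oligodendrocyte and neuron markers were present in all libraries, as the tissue label says.

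Without disease the ligand mRNA of the spinal cord was made up almost wholly of a few constitutive ligands. In control basal libraries Cx3cl1 averaged 206 ± 29.1 TPM, Cxcl14 154 ± 7.63, Ccl27a 43.7 ± 7.59 and Cxcl12 19.9 ± 4.61 (SD, n = 3), followed by Ccl25 at 4.01 TPM. Cx3cl1, Cxcl14, Ccl27a, Cxcl12, Ccl25 and Ccl28 together held 95.9, 81.8 and 95.8% of the summed ligand TPM in cKO basal and 95.6, 96.3 and 96.3% in control basal. The low value belonged to cKO basal 2, where Ccl27a led with 38.3% in place of Cx3cl1. At EAE the same 6 genes held 35.1, 32.4 and 90.6% of the ligand TPM in cKO and 14.7, 17.5 and 14.7% in control libraries. The summed ligand level was 954, 1064 and 460 TPM in cKO EAE and 2016, 1744 and 1987 TPM in control EAE, against 451, 246 and 478 TPM in cKO basal and 407, 460 and 481 TPM in control basal. In both its sum and its make-up cKO EAE 3 lay beside the basal libraries, and cKO EAE 1 and 2 lay between them and control EAE.

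**Figure D1:**
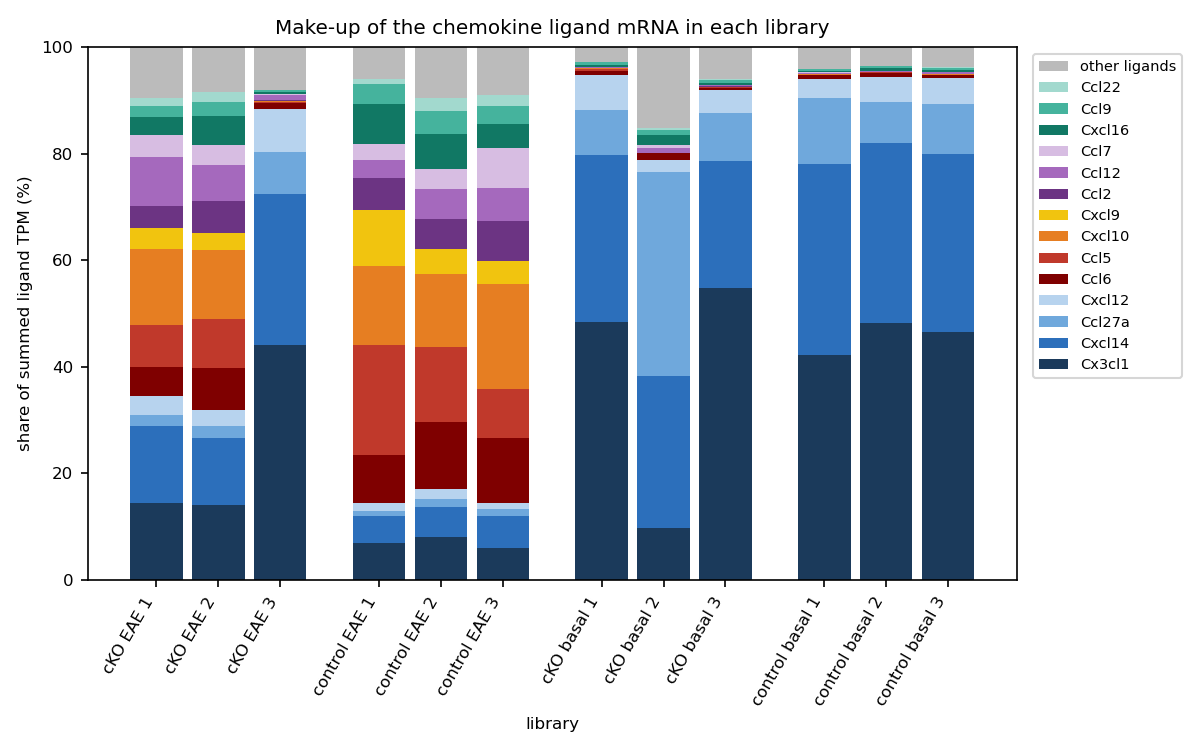
Share of the summed chemokine ligand TPM (y axis, percent) held by 14 ligands and by all others in each of the 12 libraries (x axis). Blue constitutive ligands fill most of every basal bar and of cKO EAE 3, while inflammatory ligands fill most of the 3 control EAE bars and of cKO EAE 1 and 2.

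Per length, inflammatory ligands led in control EAE, while in cKO EAE the order depended on cKO EAE 3. By mean TPM of all 3 libraries the order in cKO EAE was Cx3cl1 (164 ± 34.5), Cxcl14 (133 ± 3.46), Cxcl10 (91.4 ± 78.4), Ccl5 (57.4 ± 50.3), Ccl12 (54.6 ± 44.5) and Ccl6 (47.7 ± 40.3). Without cKO EAE 3 the means were 144 TPM for Cx3cl1, 137 for Cxcl10, 135 for Cxcl14, 85.7 for Ccl5, 80.1 for Ccl12 and 68.8 for Ccl6, so that Cxcl10 stood level with Cxcl14. In control EAE the order was Cxcl10 (309 ± 75.4), Ccl5 (281 ± 121), Ccl6 (216 ± 30.8), Cx3cl1 (132 ± 13.0), Cxcl9 (127 ± 73.6), Ccl2 (123 ± 26.2) and Cxcl16 (116 ± 31.2), each as mean and SD of 3 libraries. The first ligands of control EAE were not separated from each other beyond that spread, as Ccl5 led in control EAE 1 and 2 and Cxcl10 in control EAE 3. Cx3cl1 led in all 3 cKO EAE libraries, although in cKO EAE 1 it held 14.5% of the ligand TPM against 14.3% for Cxcl14 and 14.2% for Cxcl10.

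**Figure D2:**
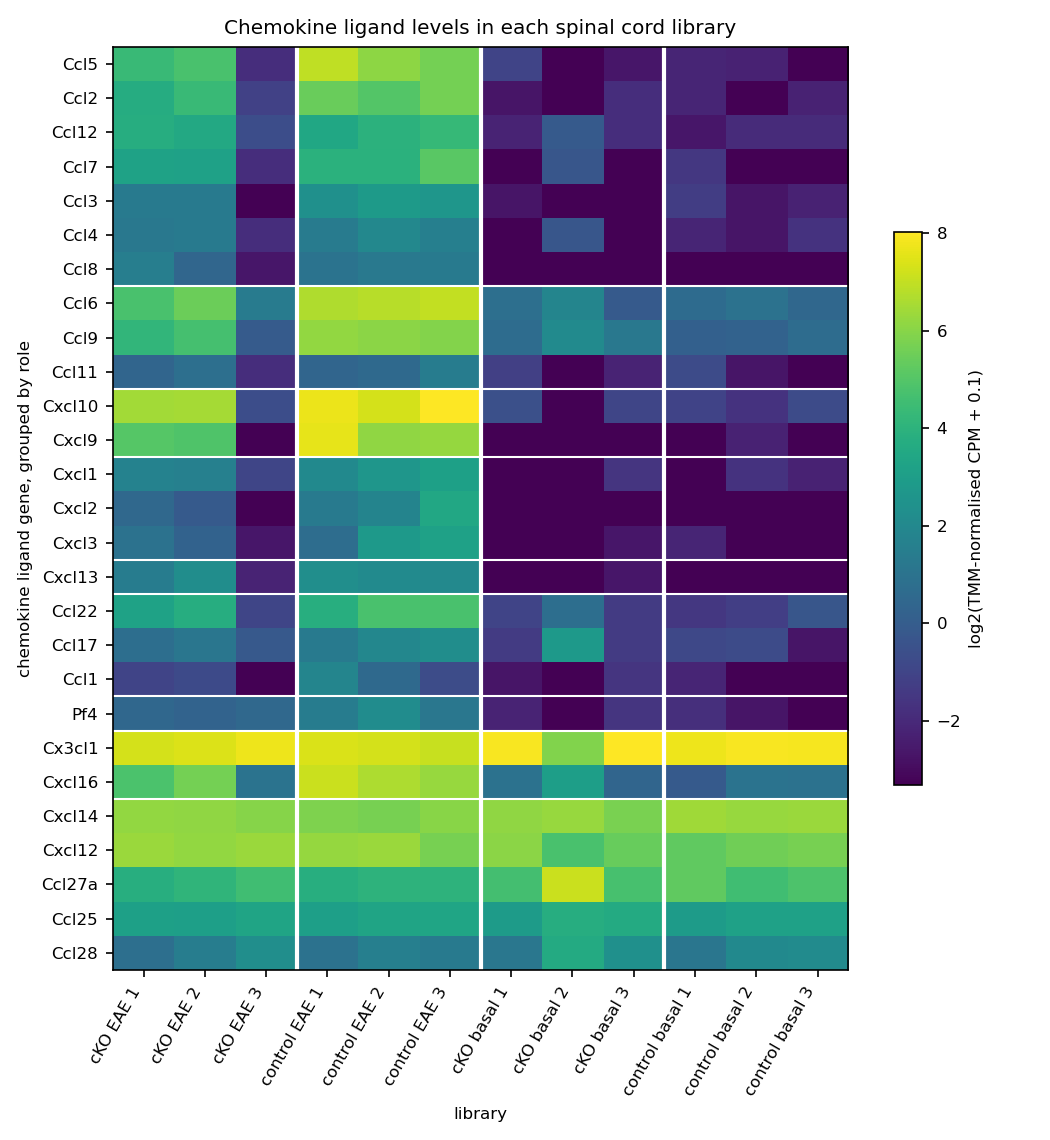
Level of the 27 ligands whose mean reached 1 CPM in a group (rows, grouped by role) in each library (columns), as log2 of TMM-normalised CPM plus 0.1. Most inflammatory rows are brighter in control EAE 1 to 3 and in cKO EAE 1 and 2 than in cKO EAE 3 and in the basal libraries, while Cx3cl1, Cxcl14 and Cxcl12 are bright throughout. Ccl17 is brightest in cKO basal 2, and Pf4 is about as bright in cKO EAE 3 as in cKO EAE 1 and 2.

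The first comparison asked which ligands EAE changed in control mice. Of 27 tested ligands 18 rose and 0 fell in control EAE against control basal, by the quasi-likelihood test of edgeR at a threshold of 0.05 on the p adjusted by Benjamini-Hochberg over all 18601 genes tested. Among all genes tested 12.1% rose and 5.05% fell in that comparison. An unadjusted p below 0.05 was reached by 21 of the 27, and by 28.6% of all genes. The ligands' median log2 fold change was 5.71, or 5.68 when a ligand without basal counts was taken at its bound, against a median of -0.01 over all genes. In 21 ligands all 3 control EAE libraries lay above all 3 control basal libraries, and in 3 they lay below, which held for 29.8 and 27% of all genes tested. A member that was all but absent without disease could pass the filter on low counts only through the EAE libraries, and could then hardly do other than rise. The share of 18 in 27 and the median therefore rest partly on that filter, and say nothing of the 19 rows not tested. Of the 9 ligands that passed the filter in the basal libraries alone, Ccl6, Ccl9 and Cxcl16 rose. In whole tissue more cells of a type and more RNA per cell cannot be told apart. Summed markers of T cells were at 75.3 to 84.9 CPM in control EAE against 0.889 to 1.66 CPM in control basal, and those of monocytes and macrophages at 1412 to 3840 CPM against 11.1 to 19.7 CPM. Their part in the ligand levels was not tested.

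**Figure D3:**
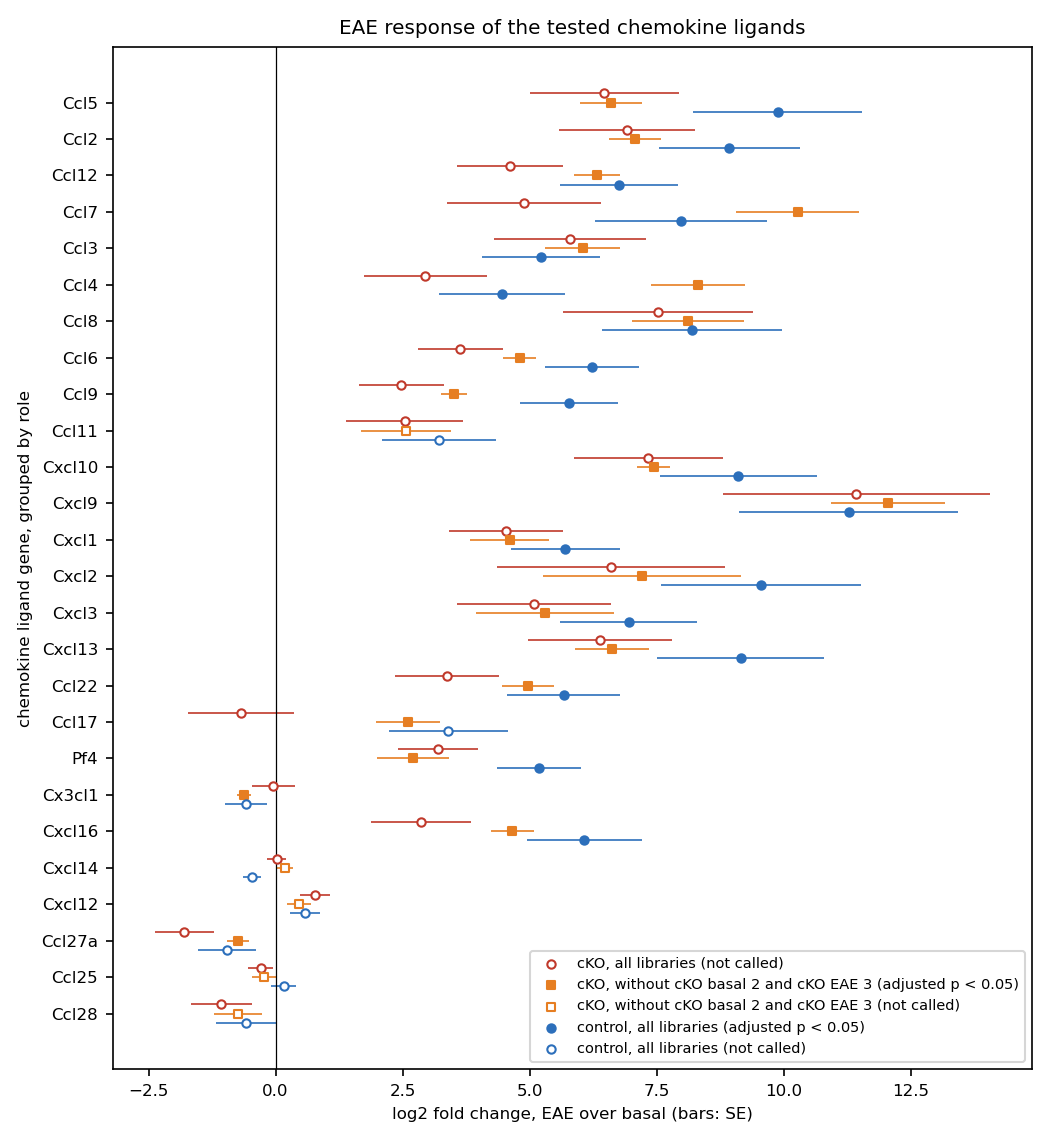
Log2 fold change of EAE over basal (x axis, bars show 1 SE) of 26 tested ligands that reached a group mean of 1 CPM, for cKO with all libraries (red), cKO without cKO basal 2 and cKO EAE 3 (orange) and control (blue), with filled symbols for an adjusted p below 0.05. In control the inflammatory ligands lie between 3.21 and 11.28 and the constitutive ones between -0.96 and 0.58. Fitted values of ligands with 0 to 3 basal counts (Cxcl9, Cxcl2, Ccl8, Cxcl3, Cxcl13, in cKO also Ccl3, Ccl7 and Ccl4) depend on the prior count and are no bounds.

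Cxcl9 and Cxcl10, which interferon gamma induces and which attract activated T cells through the receptor CXCR3, were near the floor without disease and abundant in control EAE. Cxcl10 was at 88.5, 89.5 and 0.546 CPM in cKO EAE and 206, 155 and 256 CPM in control EAE, against 0.581, 0 and 0.417 CPM in cKO basal and 0.381, 0.221 and 0.497 CPM in control basal. Cxcl9 was at 32.8, 29.6 and 0 CPM in cKO EAE and 195, 71.4 and 75.6 CPM in control EAE, against 0, 0 and 0 CPM in cKO basal and 0, 0.110 and 0 CPM in control basal. The 3 control EAE libraries lay far above every basal library for both genes, cKO EAE 1 and 2 lay in between, and cKO EAE 3 lay within the basal range. In control mice Cxcl10 rose by 9.11 (SE 1.55) on the log2 scale, with an adjusted p of 0.00375 by edgeR. Cxcl9 rose 2979.9-fold (825 to 24606) from 2 basal counts, where the interval in parentheses is exact Poisson at 95% and covers counting error only. Cxcl10 shares its locus with Art3 on the opposite strand (103 to 280 counts a library), and the sources used here give no strand setting for the counting.

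Cxcl1, Cxcl2 and Cxcl3, ligands of the neutrophil receptor CXCR2, rose as well, to means of 11.5, 9.34 and 5.65 TPM in control EAE. Cxcl1 was at 3.22, 2.93 and 0.425 CPM in cKO EAE and 4.03, 6.21 and 8.74 CPM in control EAE, against 0, 0 and 0.238 CPM in cKO basal and 0, 0.221 and 0.110 CPM in control basal. Cxcl3 was at 1.84, 1.08 and 0.0607 CPM in cKO EAE and 1.56, 6.86 and 8.85 CPM in control EAE, against 0, 0 and 0.0595 CPM in cKO basal and 0.127, 0 and 0 CPM in control basal. Cxcl2 was at 1.32, 0.838 and 0 CPM in cKO EAE and 2.42, 3.37 and 11.2 CPM in control EAE, and had 0 counts in all 6 basal libraries. In cKO EAE 3 these genes were at 0.425 CPM or below, and for Cxcl3 cKO EAE 1 lay above control EAE 1, so that the genotypes overlapped. In control mice Cxcl1 rose by 5.71 (SE 1.08) on the log2 scale (edgeR adjusted p = 0.00557), Cxcl3 rose 149-fold (41.3 to 1231) and Cxcl2 at least 98.0-fold above a floor of 3 counts over the basal group. Summed neutrophil markers were at 88.4 to 95.2 CPM in control EAE and 1.21 to 15.2 CPM in control basal, and their part was not tested. The call of Cxcl2 was lost with any of the 3 control basal libraries or control EAE 3 left out. Cxcl5, a further CXCR2 ligand that was tested, was not called (log2 fold change 0.12 (SE 0.84)) and had at most 1.40 CPM in a control library.

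Promoters of the CXCR2 and CXCR3 ligands that rose are shown with the letters searched in them, because these genes lie near each other on chromosome 5 and rose in control EAE. Windows of 250 bases before to 50 bases after the start came from RefSeq (GRCm38.p6, the files' build) and were found for 29 of the 40 symbols. Capitals mark a short form of the kappa B element (GGNNTTTCC, or its complement read from the other strand) and of the interferon response element (GAAANNGAA), each printed 5′ to 3′ on the gene's own strand and ending just before the start.
Cxcl1: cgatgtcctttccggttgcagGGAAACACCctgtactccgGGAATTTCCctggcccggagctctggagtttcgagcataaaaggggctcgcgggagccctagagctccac
Cxcl2: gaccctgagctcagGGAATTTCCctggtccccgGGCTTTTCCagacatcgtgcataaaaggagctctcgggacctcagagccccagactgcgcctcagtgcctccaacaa
Cxcl3: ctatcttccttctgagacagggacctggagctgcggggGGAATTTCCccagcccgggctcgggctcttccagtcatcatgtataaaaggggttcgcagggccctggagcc
Cxcl9: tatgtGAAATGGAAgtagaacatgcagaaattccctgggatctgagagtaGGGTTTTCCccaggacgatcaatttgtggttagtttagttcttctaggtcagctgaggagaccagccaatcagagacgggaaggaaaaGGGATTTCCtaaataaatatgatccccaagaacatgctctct
Cxcl10: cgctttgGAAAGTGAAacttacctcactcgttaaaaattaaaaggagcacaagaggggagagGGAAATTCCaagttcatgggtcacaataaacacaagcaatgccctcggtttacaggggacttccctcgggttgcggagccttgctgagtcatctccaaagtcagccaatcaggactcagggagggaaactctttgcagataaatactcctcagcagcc

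The stretches lie at chr5:90891135-90891244, chr5:90903789-90903898 and chr5:90785991-90786100 on the plus strand, and at chr5:92328080-92328259 and chr5:92348890-92349109 on the minus strand. The same 9 letters GGAATTTCC stood at -70 to -62 from the start of Cxcl1, -96 to -88 of Cxcl2 and -72 to -64 of Cxcl3. Cxcl9 held kappa B letters at -130 to -122 and at -42 to -34, and interferon response letters at -175 to -167. In Cxcl10 kappa B letters were found on the other strand at -158 to -150 and interferon response letters at -213 to -205. The kappa B letters were in 6 of 13 windows of ligands that rose in control EAE (Cxcl1, Cxcl2, Cxcl3, Cxcl9, Cxcl10 and Ccl9), in 0 of 10 windows of tested ligands that were not called, and in 5.82% of all 32851 windows. Those 10 windows came from 7 ligands, as Ccl27a and Ccl25 had more than 1 window, while the 13 came from 13 ligands. The interferon response letters were in 3 of 13, 1 of 10 and 8.56%, and a STAT element (TTCNNNGAA) was in 0 of 13, 2 of 10 and 8.30%. Windows were not used for Ccl11, Ccl2, Ccl21c, Ccl24, Ccl26, Ccl4, Ccl5, Ccl7, Cxcl16, Cxcl17 and Cxcl5. A match describes letters only and is not a site.

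The 7 CC ligands listed as attractants of monocytes and activated T cells all rose in control EAE, with a median log2 fold change of 7.98 (6.75 with Ccl8 at its bound). Ccl2, the main monocyte attractant, was at 13.1, 20.9 and 0.364 CPM in cKO EAE and 43.0, 31.8 and 49.7 CPM in control EAE, against 0.0581, 0 and 0.179 CPM in cKO basal and 0.127, 0 and 0.110 CPM in control basal. Ccl7 was at 9.25, 8.97 and 0.182 CPM in cKO EAE and 15.3, 14.9 and 34.9 CPM in control EAE, against 0, 0.727 and 0 CPM in cKO basal and 0.254, 0 and 0 CPM in control basal. Ccl12, a mouse relative of Ccl2, was at 13.5, 11.4 and 0.546 CPM in cKO EAE and 10.7, 15.4 and 19.6 CPM in control EAE, against 0.116, 0.818 and 0.179 CPM in cKO basal and 0.0635, 0.165 and 0.166 CPM in control basal. For Ccl2 and Ccl7 cKO EAE 1 and 2 lay below all control EAE libraries, whereas for Ccl12 cKO EAE 1 and 2 lay among them. The log2 fold changes in control mice were 8.93 (SE 1.39) for Ccl2, 7.98 (SE 1.70) for Ccl7 and 6.75 (SE 1.16) for Ccl12, with edgeR adjusted p of 0.00319, 0.00940 and 0.00389. Ccl8, of the same monocyte chemoattractant family, was at 2.81, 1.26 and 0.0607 CPM in cKO EAE and 1.90, 2.31 and 2.39 CPM in control EAE and had 0 counts in every basal library, so that it rose at least 38.1-fold in control mice.

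Ccl5, which T cells and other leukocytes secrete, had the second highest mean TPM of control EAE. It was at 20.7, 26.9 and 0.182 CPM in cKO EAE and 122, 67.6 and 50.8 CPM in control EAE, against 0.407, 0 and 0.0595 CPM in cKO basal and 0.127, 0.110 and 0 CPM in control basal. Ccl3 was at 2.41, 2.45 and 0 CPM in cKO EAE and 5.07, 7.21 and 6.06 CPM in control EAE, against 0.0581, 0 and 0 CPM in cKO basal and 0.318, 0.0552 and 0.110 CPM in control basal. Ccl4, a close relative of Ccl3, was at 2.24, 2.45 and 0.182 CPM in cKO EAE and 2.54, 3.84 and 2.91 CPM in control EAE, against 0, 0.727 and 0 CPM in cKO basal and 0.127, 0.0552 and 0.221 CPM in control basal. Every control EAE library lay above every basal library for these genes, and cKO EAE 3 had 3, 0 and 3 counts of Ccl5, Ccl3 and Ccl4. In control mice Ccl5 rose by 9.88 (SE 1.66), Ccl3 by 5.22 (SE 1.16) and Ccl4 by 4.45 (SE 1.24) on the log2 scale, with edgeR adjusted p of 0.00352, 0.0114 and 0.0315. The calls of Ccl3 and Ccl7 were lost without control basal 2 or control basal 3, that of Cxcl9 without control basal 2, and those of Ccl4 and Ccl8 without any 1 of the 6 control libraries.

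Among the other CC ligands of myeloid cells, Ccl6 and Ccl9, rodent ligands of CCR1 that macrophages make, were already counted in every basal library. Ccl6 was at 27.0, 44.4 and 2.55 CPM in cKO EAE and 101, 113 and 129 CPM in control EAE, against 1.68, 3.54 and 0.834 CPM in cKO basal and 1.46, 1.82 and 1.27 CPM in control basal. Ccl9 was at 17.5, 25.4 and 0.850 CPM in cKO EAE and 72.4, 67.3 and 59.9 CPM in control EAE, against 1.51, 4.27 and 2.20 CPM in cKO basal and 1.02, 1.10 and 1.49 CPM in control basal. The control EAE libraries lay close together, with Ccl9 at 59.9 to 72.4 CPM, and cKO EAE 1 and 2 were well below them. In control mice Ccl6 rose by 6.23 (SE 0.92) and Ccl9 by 5.78 (SE 0.97) on the log2 scale, with edgeR adjusted p of 0.00318 and 0.00349. Ccl11 (eotaxin), which attracts eosinophils through CCR3, was at 1.21, 1.68 and 0.182 CPM in cKO EAE and 1.21, 1.36 and 2.62 CPM in control EAE, against 0.349, 0 and 0.119 CPM in cKO basal and 0.508, 0.0552 and 0 CPM in control basal. It had a log2 fold change of 3.21 (SE 1.12) that was not called with all libraries (edgeR adjusted p = 0.0766) and was called without cKO basal 2 and cKO EAE 3 (0.00346).

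Of the ligands that dendritic cells and T cells use to meet each other, Ccl22 was the one called. Ccl22, a ligand of CCR4 on regulatory and helper T cells, was at 9.19, 13.5 and 0.425 CPM in cKO EAE and 13.6, 27.2 and 27.4 CPM in control EAE, against 0.407, 1.64 and 0.298 CPM in cKO basal and 0.254, 0.331 and 0.717 CPM in control basal. Ccl17, the other CCR4 ligand, was at 1.61, 2.09 and 0.789 CPM in cKO EAE and 2.36, 3.72 and 4.60 CPM in control EAE, against 0.290, 6.81 and 0.298 CPM in cKO basal and 0.445, 0.496 and 0.0552 CPM in control basal. The single library cKO basal 2 held more Ccl17 than any EAE library. In control mice Ccl22 rose by 5.68 (SE 1.11) on the log2 scale (edgeR adjusted p = 0.00642), and Ccl17 had 3.40 (SE 1.18) with an adjusted p of 0.0747, or 0.000111 without the libraries that stood apart. Cxcl13, which draws B cells through CXCR5, was at 2.58, 4.67 and 0.121 CPM in cKO EAE and 4.78, 4.20 and 3.90 CPM in control EAE, with 1 count in all 6 basal libraries together, and rose at least 74.5-fold in control mice. Ccl1, a ligand of CCR8, was at 0.402, 0.479 and 0 CPM in cKO EAE and 3.51, 1.36 and 0.524 CPM in control EAE, against 0.0581, 0 and 0.238 CPM in cKO basal and 0.127, 0 and 0 CPM in control basal. Ccl1 did not pass the filter on low counts with all libraries, and its 93 control EAE counts were 47.0-fold (13.0 to 388) those of control basal. Summed dendritic cell markers were at 102 to 129 CPM in control EAE against 36.9 to 46.3 CPM in control basal, and those of B and plasma cells at 1.67 to 2.31 CPM against 0.883 to 1.40 CPM.

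Pf4, platelet factor 4, which macrophages at the borders of the nervous system also transcribe, was at 1.26, 1.14 and 1.34 CPM in cKO EAE and 2.65, 4.49 and 2.15 CPM in control EAE, against 0.116, 0 and 0.238 CPM in cKO basal and 0.191, 0.0552 and 0 CPM in control basal. For this gene cKO EAE 3 lay beside cKO EAE 1 and 2, and all 3 were above every basal library and below every control EAE library. In control mice it rose by 5.18 (SE 0.83) on the log2 scale (edgeR adjusted p = 0.00321). Summed platelet markers were at 4.13 to 5.19 CPM in control EAE and 3.64 to 3.94 CPM in control basal, with Gp1bb at 0 in every library of both groups. Ppbp, the platelet ligand next to Pf4 on chromosome 5, was at 0.861, 0.120 and 1.64 CPM in cKO EAE and 0.230, 0.0591 and 0.291 CPM in control EAE, against 0.116, 0 and 0.357 CPM in cKO basal and 0.254, 0.165 and 0 CPM in control basal and was too low to be tested with all libraries.

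The membrane-bound ligands went different ways. Cxcl16, which binds CXCR6 on T cells, was at 28.0, 50.3 and 1.88 CPM in cKO EAE and 138, 98.3 and 76.5 CPM in control EAE, against 1.86, 8.18 and 1.19 CPM in cKO basal and 0.826, 1.93 and 1.82 CPM in control basal, and in control mice it rose by 6.08 (SE 1.14) on the log2 scale (edgeR adjusted p = 0.00520). It overlaps Zmynd15 on the opposite strand, which ran from 0 to 685 counts a library and like Cxcl16 was highest in control EAE 1. Cx3cl1 was at 157, 171 and 213 CPM in cKO EAE and 166, 159.6 and 135 CPM in control EAE, against 238, 58.1 and 261 CPM in cKO basal and 214, 239 and 236 CPM in control basal. All control EAE libraries lay below all control basal ones, and cKO basal 2 was lowest of all. The log2 fold change of Cx3cl1 in control mice was -0.58 (SE 0.42) with an edgeR adjusted p of 0.426, and -0.57 (SE 0.12) with 0.00149 without cKO basal 2 and cKO EAE 3, where it passed as lower. Summed neuron markers were at 1682 to 2163 CPM in control EAE against 4122 to 5242 CPM in control basal, and their part was not tested.

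None of the 5 tested constitutive ligands was called in control mice with all libraries. Cxcl12, which holds leukocytes with CXCR4 around vessels, was at 81.0, 72.0 and 80.6 CPM in cKO EAE and 74.1, 78.7 and 52.2 CPM in control EAE, against 67.3, 26.8 and 42.3 CPM in cKO basal and 38.2, 47.2 and 52.1 CPM in control basal. Cxcl14, made by many resting tissues, was at 72.2, 70.1 and 63.0 CPM in cKO EAE and 57.2, 52.0 and 65.1 CPM in control EAE, against 71.5, 78.3 and 52.8 CPM in cKO basal and 84.1, 77.8 and 78.7 CPM in control basal. Ccl27a, a ligand of CCR10 best known from skin, was at 13.9, 17.0 and 23.1 CPM in cKO EAE and 13.9, 16.0 and 16.3 CPM in control EAE, against 25.0, 137 and 26.0 CPM in cKO basal and 38.0, 23.2 and 28.7 CPM in control basal. In these genes the control EAE and control basal libraries did not overlap, with Cxcl12 higher by a small margin and the other 2 lower at EAE. In Ccl27a cKO basal 2 was far from its group, and in Cxcl12 it was the lowest of a widely spread group. Their log2 fold changes in control mice were 0.58 (SE 0.30), -0.46 (SE 0.18) and -0.96 (SE 0.57), with edgeR adjusted p of 0.245, 0.107 and 0.317. Without cKO basal 2 and cKO EAE 3 all 3 passed, at 0.0268, 0.0129 and 0.000844, and in all 22 ligands rose and 3 fell, against 24.9 and 20.8% of all genes. Ccl27a overlaps Il11ra1 on the opposite strand (487 to 4128 counts), which like Ccl27a was highest in cKO basal 2, and it has near-identical copies on scaffolds, so that its counts are uncertain.

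Ccl25, known for thymus and gut, was at 8.67, 8.50 and 9.89 CPM in cKO EAE and 8.35, 9.75 and 10.2 CPM in control EAE, against 7.49, 13.4 and 12.3 CPM in cKO basal and 7.30, 9.05 and 8.99 CPM in control basal. Ccl28, a mucosal ligand, was at 1.67, 2.69 and 4.80 CPM in cKO EAE and 1.84, 2.90 and 2.39 CPM in control EAE, against 2.15, 12.1 and 5.06 CPM in cKO basal and 2.10, 4.08 and 4.41 CPM in control basal. Apart from a high cKO basal 2 the groups overlapped in both genes. Their log2 fold changes in control mice were 0.16 (SE 0.25) and -0.57 (SE 0.60), with edgeR adjusted p of 0.758 and 0.613. Ccl25 overlaps Elavl1 on the opposite strand (385 to 1501 counts).

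The second comparison put the same question to cKO mice, where inflammatory ligand levels at EAE came mainly from cKO EAE 1 and 2. By edgeR's quasi-likelihood test 0 of 27 tested ligands were called in cKO EAE against cKO basal, while 21 had an unadjusted p below 0.05. Among all genes 0.0376% were called (0.0323% rose and 0.00538% fell), and 19.6% had an unadjusted p below 0.05. DESeq2 called 17 ligands (16 rose and Ccl27a fell, against 5.67 and 0.989% of all genes) and limma voom 13 (11 rose, and Ccl27a and Cx3cl1 fell, against 11.5 and 8.12% of all genes). The median log2 fold change of the ligands was 3.37 against 0.08 over all genes. In 7 ligands (Ccl2, Ccl8, Cxcl1, Cxcl12, Cxcl13, Cxcl3 and Pf4) all 3 cKO EAE libraries lay above all 3 cKO basal libraries, and in Ccl27a they lay below, against 9.8 and 5.78% of all genes. The fitted log2 fold changes were 7.33 (SE 1.47) for Cxcl10, 6.92 (SE 1.34) for Ccl2, 6.47 (SE 1.46) for Ccl5, 4.62 (SE 1.05) for Ccl12 and 3.64 (SE 0.83) for Ccl6, with edgeR adjusted p of 0.0726, 0.0726, 0.0758, 0.0763 and 0.0767. Cxcl9, with 1066 counts in cKO EAE and 0 in cKO basal, was at least 316-fold higher, with an adjusted p of 0.0862.

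The calls in cKO mice turned on cKO EAE 3. It was singled out by its low ligand levels, so leaving it out favoured a rise in advance. Without that library 15 of 29 tested ligands rose and 0 fell, where 5.39% of all genes rose. Without cKO basal 2 as well 19 of 28 rose, none of them a constitutive ligand, and Ccl27a (-0.74 (SE 0.22)) and Cx3cl1 (-0.62 (SE 0.14)) fell, where 10.8% of all genes rose and 3.51% fell. In that smaller set Cxcl10 rose by 7.44 (SE 0.33), Ccl2 by 7.07 (SE 0.52), Ccl5 by 6.60 (SE 0.60), Ccl12 by 6.32 (SE 0.45), Ccl6 by 4.80 (SE 0.33) and Ccl9 by 3.52 (SE 0.26) on the log2 scale, with edgeR adjusted p of at most 9.79e-06. Ccl7 was at least 103-fold and Ccl4 at least 26.6-fold above a floor of 3 counts, as both had counts in cKO basal 2 alone among the cKO basal libraries. Ccl17, high in cKO basal 2, had a log2 fold change of -0.68 with all libraries and 2.61 (SE 0.63) without the pair. In cKO EAE 3 the summed T cell markers were at 1.34 CPM with Cd3d, Cd3g and Cd2 at 0, against 22.0 and 35.4 CPM in cKO EAE 1 and 2. Its monocyte and macrophage markers were at 26.5 CPM against 455 and 816 CPM. Their part in the ligand levels of that library was not tested.

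The difference between both EAE responses was tested in the same fit, and 0 of 27 ligands or of all 18601 genes were called by edgeR. An unadjusted p below 0.05 was reached by 4 ligands, against 9.12% of all genes. DESeq2 called 0 ligands, and limma voom called Cxcl14 upward and Pf4 downward, where it called 8.77% of all genes upward and 7.35% downward. Those 4 were Ccl9, Ccl17, Cxcl16 and Ccl6, with a cKO minus control difference in log2 fold change of -3.31 (SE 1.17), -4.08 (SE 1.57), -3.21 (SE 1.35) and -2.59 (SE 1.10) and the same edgeR adjusted p of 0.547. The difference was below 0 in 22 of 27 ligands, with a median of -1.77 against -0.05 over all genes. Among those below 0 were Ccl8 and Cxcl2, which had no counts in any basal library, so that this test could not call them. Without cKO basal 2 and cKO EAE 3 the median was -0.70, Ccl17 was at -0.81 (SE 0.87) and Ccl9 at -2.27 (SE 0.35) with an edgeR adjusted p of 0.0910, and still 0 ligands were called. A smaller ligand response in cKO mice was therefore not shown for any gene by this test.

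The third comparison set cKO against control within the 6 EAE libraries, all of 1 sex. Of 27 tested ligands 0 were called by edgeR's quasi-likelihood test, where 7.67% of all 17914 genes tested were called (6.13% rose and 1.54% fell). An unadjusted p below 0.05 was reached by 7 ligands and by 35.9% of all genes. DESeq2 called Ccl17, Cxcl3 and Pf4 as lower, as it did 10.6% of all genes. The limma voom fit called Ccl17, Ccl6, Ccl9, Cxcl16 and Pf4 as lower and Cxcl14 as higher, against 15.5 and 16.9% of all genes. In 15 ligands all 3 cKO EAE libraries lay below all 3 control EAE libraries, which held for 26.7% of all genes. They were Ccl2, Ccl3, Ccl4, Ccl5, Ccl6, Ccl7, Ccl9, Ccl17, Ccl22, Cxcl1, Cxcl2, Cxcl9, Cxcl10, Cxcl16 and Pf4. The median log2 fold change of the ligands was -1.27 against 0.00 over all genes. Pf4 had the smallest adjusted p, with -1.27 (SE 0.33) and 0.0590, followed by Cxcl2 with -2.91 (SE 0.98) and 0.0921 and Ccl17 with -1.21 (SE 0.41) and 0.0930, all by edgeR.

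**Figure D4:**
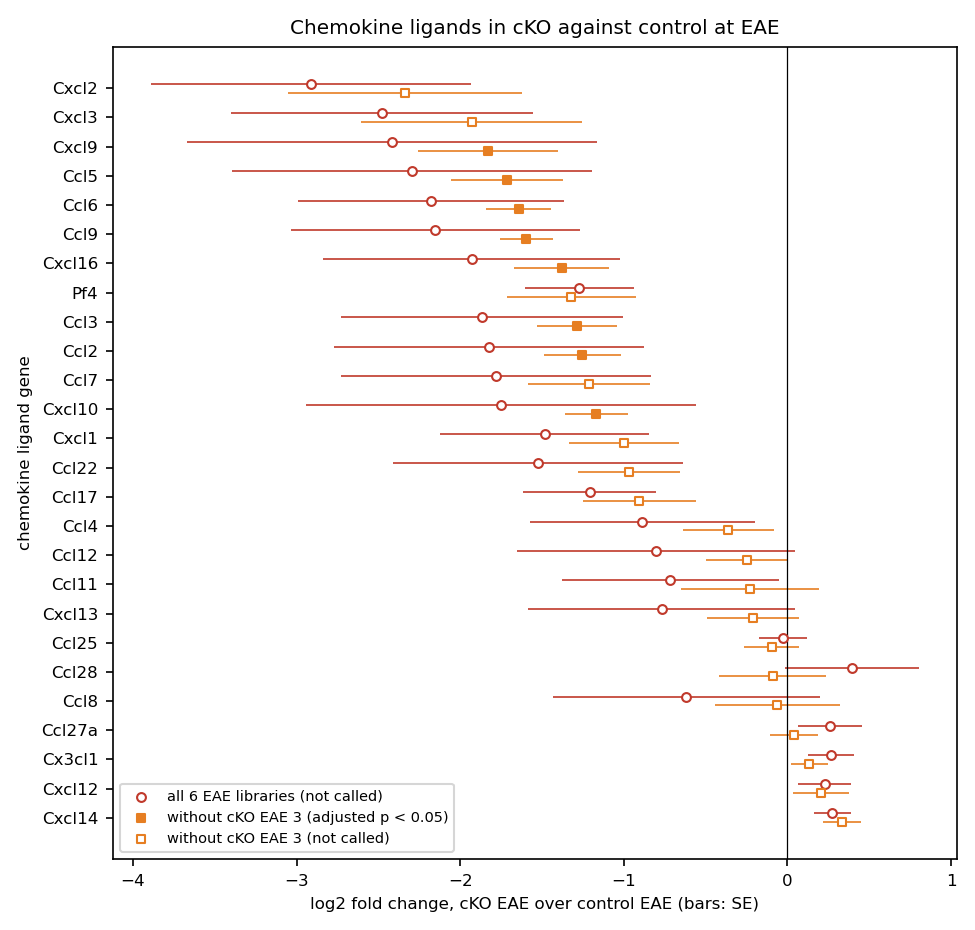
Log2 fold change of cKO EAE over control EAE (x axis, bars show 1 SE) of 26 tested ligands, with all 6 libraries (red) and without cKO EAE 3 (orange), filled where the adjusted p is below 0.05. The 8 ligands called without cKO EAE 3 lie between -1.83 and -1.17, and Ccl12, Cxcl13, Ccl8 and Ccl11 lie within 0.25 of 0 in that set.

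Without cKO EAE 3 the remaining pair of cKO libraries was lower in 8 of 28 tested ligands, against 9.1% of all genes. Leaving out a library singled out by its ligand levels narrowed the spread, so these calls rest on a choice from the same values. The log2 fold changes were -1.83 (SE 0.43) for Cxcl9, -1.71 (SE 0.34) for Ccl5, -1.64 (SE 0.20) for Ccl6, -1.60 (SE 0.16) for Ccl9, -1.38 (SE 0.29) for Cxcl16, -1.29 (SE 0.24) for Ccl3, -1.25 (SE 0.23) for Ccl2 and -1.17 (SE 0.19) for Cxcl10, with edgeR adjusted p of 0.0150 to 0.0262. Other inflammatory ligands had log2 fold changes nearer 0 in this set, with -0.25 (SE 0.25) for Ccl12, -0.21 (SE 0.28) for Cxcl13, -0.06 (SE 0.38) for Ccl8, -0.23 (SE 0.42) for Ccl11 and -0.36 (SE 0.28) for Ccl4, none of them called. Whether these ligands differ from the 8 called ones was not tested. In this set 16 of 28 ligands had both cKO libraries below all control libraries and Cxcl14 had both above, against 29.8 and 23.5% of all genes. The constitutive ligands Cx3cl1 (0.13 (SE 0.11)), Cxcl12 (0.20 (SE 0.17)) and Ccl27a (0.04 (SE 0.15)) were not called. Without cKO EAE 2 in place of cKO EAE 3, 1 ligand was called (10.7% of all genes rose and 7.9% fell), as Ppbp passed the filter and was higher in cKO (2.67 (SE 0.60), edgeR adjusted p = 0.0385), although its libraries overlapped with all 6 present.

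Some marker lists were lower in cKO EAE like these ligands, while others were higher or overlapped between the genotypes. Summed T cell markers were at 22.0, 35.4 and 1.34 CPM in cKO EAE against 84.9, 75.3 and 82.3 CPM in control EAE. Monocyte and macrophage markers were at 455, 816 and 26.5 CPM against 3840, 1944 and 1412 CPM. Microglia markers were at 396, 665 and 168 CPM against 830, 744 and 789 CPM, while neutrophil markers overlapped, at 104, 58.0 and 27.4 CPM against 88.4, 89.0 and 95.2 CPM. All genes of these 4 lists had counts in every EAE library except Cd3d, Cd3g and Cd2 in cKO EAE 3. Dendritic cell markers were at 41.5 to 79.9 CPM in cKO EAE against 102 to 129 CPM in control EAE, and endothelial markers at 109 to 151 CPM against 161 to 196 CPM. Markers of neurons (3166 to 4354 CPM in cKO EAE against 1682 to 2163 CPM in control EAE), oligodendrocytes (17204 to 23258 against 11825 to 15337 CPM), lymphatic endothelium (63.2 to 67.1 against 55.3 to 60.2 CPM) and erythrocytes (16.8 to 39.5 against 8.24 to 16.3 CPM) were higher in all 3 cKO EAE libraries. Schwann cell markers were at 272, 2.39 and 119 CPM in cKO EAE against 2.02, 2.07 and 2.68 CPM in control EAE. Astrocyte markers overlapped, at 5610 to 9854 CPM in cKO EAE and 8859 to 10136 CPM in control EAE. Those of fibroblasts and meninges, of platelets and of B and plasma cells overlapped too. The part of the cell make-up in the ligand levels was not tested.

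Without disease no ligand was called between cKO and control. Only 9 ligands had enough counts, and edgeR called 0 of them and 0 of all 17133 genes, with 0 ligands and 0.181% of all genes at an unadjusted p below 0.05. DESeq2 and limma voom called 0 ligands. The log2 fold changes ran from -0.30 (SE 0.54) for Cx3cl1 to 1.29 (SE 0.83) for Cxcl16. Ccl9 was the ligand with all 3 cKO libraries above all 3 control libraries, which held for 2.14% of all genes, with 1.14 (SE 0.53) and an edgeR adjusted p of 0.997. Without cKO basal 2 the range was -0.37 (SE 0.17) for Cxcl14 to 0.62 (SE 0.37) for Ccl9, and Cxcl16 was at -0.01 (SE 0.45).

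Ligand genes stood in clusters on the chromosomes, and neighbours did not all move together. Members less than 1 Mb apart were joined, with coordinates of build mm10 from the deposited table. In the cluster at chr11:82035571-82305690, 4 of 5 tested members rose in control EAE (Ccl2, Ccl7, Ccl12 and Ccl8, with Ccl11 not called and Ccl1 not tested). At chr11:83525778-83664683 all 5 rose (Ccl5, Ccl9, Ccl6, Ccl3 and Ccl4). At chr5:90759360-90905938 Pf4, Cxcl1, Cxcl2 and Cxcl3 rose while Cxcl5 was not called, Ppbp was not tested and Cxcl15 had 0 counts in all 12 libraries. Cxcl9 and Cxcl10, which lie side by side at chr5:92321347-92348889, both rose. At chr8:94745590-94812036 Cx3cl1 lies between Ccl22, which rose, and Ccl17, and had a log2 fold change below 0. The cluster at chr4:41769467-42773993 held Ccl27a, Ccl27b, Ccl19, Ccl21b and Ccl21a, of which Ccl27a alone was tested.

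**Figure D5:**
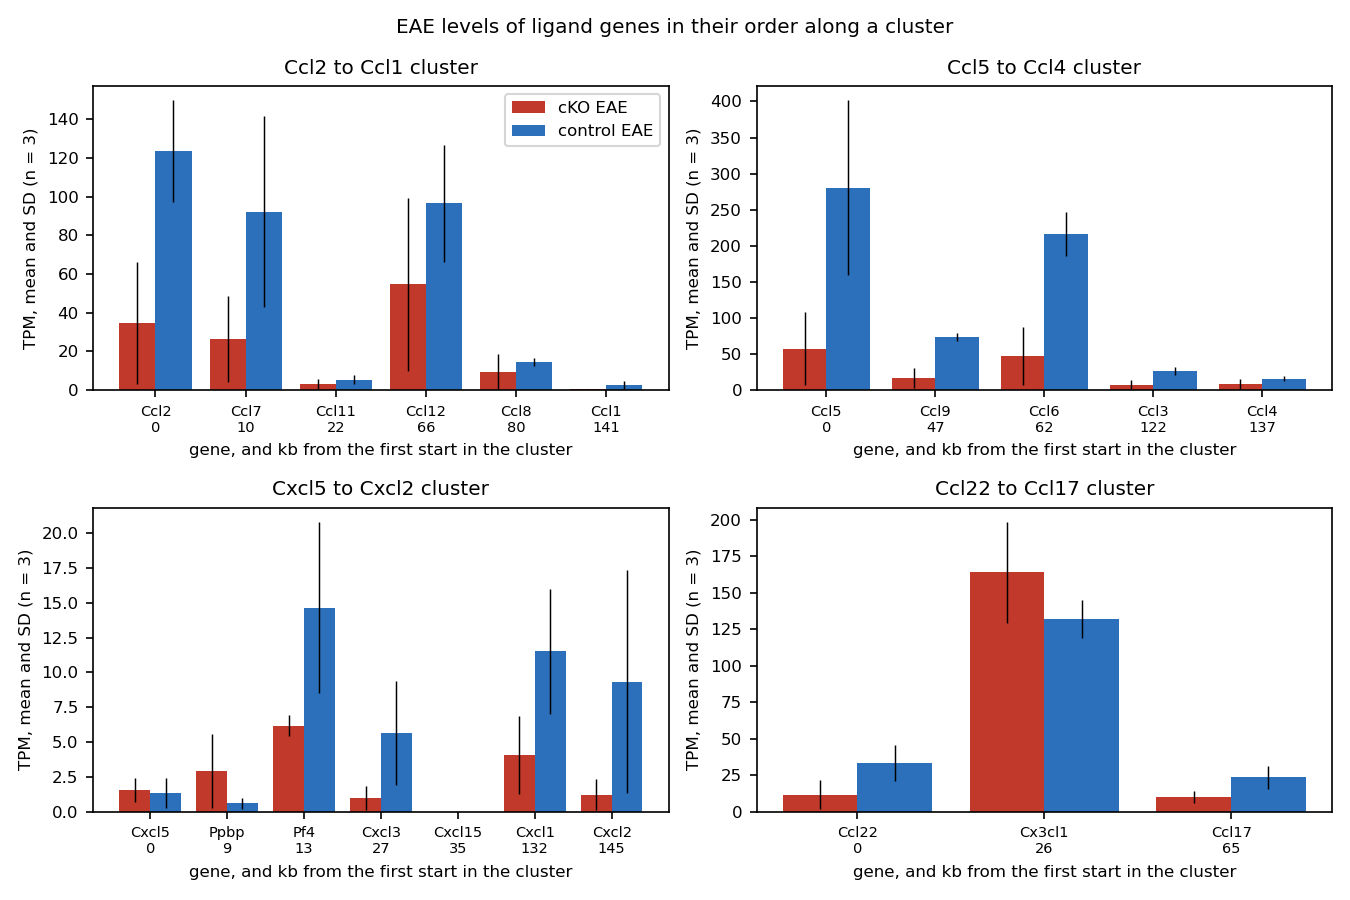
Mean TPM with SD (n = 3; bars below 0 are not drawn) in cKO EAE (red) and control EAE (blue) of ligand genes in 4 clusters, ordered along the chromosome with the distance in kb from the first start. Levels within a cluster range widely, from Ccl2 at 123 TPM to Ccl11 at 5.44 TPM in control EAE in the first panel, and Cx3cl1 in the last panel is the 1 tall pair with cKO above control.

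The 19 rows that were not tested added little. Besides Ccl1 and Ppbp, those with a count were a scaffold copy of Ccl27a (69 counts over the 12 libraries), Ccl24 (57), Cxcl17 (21), Xcl1 (16), a scaffold copy of Ccl21c (13), Ccl27b (10), Ccl20 (6), Ccl26 (6), Ccl19 (2) and Ccl21b (1). Of the 57 counts of Ccl24, a ligand of CCR3, 25 came from control EAE 3 and 18 from cKO basal 2. Xcl1, the C chemokine of T and natural killer cells, had 3, 1 and 0 counts in cKO EAE and 9, 0 and 3 in control EAE, with 0 in all basal libraries. The lymphoid homing ligands Ccl19, Ccl21a, Ccl21b and Ccl21c had at most 2 counts a library in any row, and 7 rows had 0 counts in all libraries. Near-identical copies share reads, so that these rows cannot be told apart. The pseudogene-annotated Cxcl11, the remaining CXCR3 ligand gene, had 20, 17 and 4 counts in cKO EAE and 66, 31 and 59 in control EAE.

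Most chemokine receptors rose at EAE in control mice too. Of 18 listed signalling receptors 15 were tested and 14 rose in control EAE, where 12.1% of all genes rose. Receptors without counts in the basal libraries could pass the filter on low counts only through the EAE libraries. The shares among tested receptors, here and below, therefore rest partly on that filter. Of 5 listed atypical receptors, which bind ligands without G protein signalling, 4 were tested and 1 rose (Ccrl2), and all 3 listed proteases that shed or trim ligands (Adam10, Adam17 and Dpp4) rose. Ccr2, the receptor of Ccl2, averaged 85.8 ± 16.4 CPM in control EAE and 0.103 ± 0.134 CPM in control basal (SD, n = 3 each), a log2 fold change of 9.67 (SE 1.47). Cx3cr1 changed by 2.99 (SE 0.45) and Ccrl2 by 4.65 (SE 0.67), each called by edgeR with an adjusted p of 0.00318. In cKO mice 0 of these genes were called by edgeR with all libraries, with an unadjusted p below 0.05 in 12 of 15 receptors, 1 of 4 atypical receptors and 2 of 3 proteases and in 19.6% of all genes. Without cKO EAE 3, 12 of 16 receptors, 1 of 4 atypical receptors and 2 of 3 proteases rose, against 5.39% of all genes. In cKO EAE against control EAE 0 were called with all libraries, where 7.67% of all genes were called. An unadjusted p below 0.05 was reached by 4 receptors, 1 atypical receptor and 2 proteases, a share no higher than the 35.9% of all genes. Against 9.1% of all genes, 8 of 16 receptors, 1 of 4 atypical receptors and 1 of 3 proteases fell without cKO EAE 3. The smallest p with all libraries belonged to Adam17 (-1.26 (SE 0.37)), which sheds Cx3cl1, and to Ccr4 (-1.98 (SE 0.62)), Ccrl2 (-1.72 (SE 0.60)) and Adam10 (-0.55 (SE 0.20)), as log2 fold changes that were not called.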

How the data were processed

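RNA sequencing libraries of total spinal cord RNA (12 libraries, 4 groups of 3 labelled as biological replicates) were used as the raw read counts per gene that the authors deposited, with gene length, position and biotype from the same table. HISAT2 2.0.5, featureCounts 1.5.0-p3 and build mm10 are named in the submitters' processing notes, and the sources used here give no strand setting. Ligands, roles, marker lists and pathway lists were chosen with earlier results of these data known. Counts were filtered with filterByExpr, scaled with TMM and tested with edgeR 4.0.16 (R 4.3.3) by the quasi-likelihood test with Benjamini-Hochberg adjustment over all genes tested, at a threshold of 0.05. The EAE responses and their difference were fitted on all 12 libraries, and the genotypes within each state on 6. TPM were computed from counts and the deposited gene length. Every ligand with a group mean of at least 1 CPM was given per library, others by range and count, and pathway genes as counts with at most 4 named per comparison by smallest p (1 of these is not reported here). Folds against 0 counts are bounds with 3 counts over the group as the floor. Floors and exact Poisson intervals cover counting error only. Alternatives were DESeq2 1.42.0, its size factors, limma 3.58.1 voom with sample weights, no filter, a replicate block, other sets of libraries and leaving out each library. The fits were checked on simulated counts with 200 genes changed 2-fold, 4-fold or 8-fold. For the difference between responses 0, 1.52 and 64.9% of the changed genes were recovered. For cKO against control it was 0, 0 and 47.6% at basal and 20.2, 77.8 and 96.8% at EAE. For the EAE responses it was 0, 40.9 and 73.7% in control and 0, 51 and 72.7% in cKO. A ligand not called could thus have changed 4-fold, and in the EAE responses, the difference or at basal 8-fold. The simulated counts held no library that stood apart and no group near 0 counts, so larger changes can be missed in the data. In cKO mice Cxcl10 was not called at a fitted log2 fold change of 7.33.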

Additional observations from a re-analysis of the deposited data

How the results depend on the processing

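In control mice the count of 18 called ligands was 18 with DESeq2 size factors, 19 without the filter, 15 with the replicate block (without Cxcl2, Ccl4 and Ccl8), 20 with DESeq2, 25 with limma voom, 24 in the 6 control libraries alone, 25 (22 higher and 3 lower) without cKO basal 2 and cKO EAE 3, and 12 to 25 with 1 library left out. In cKO mice the count of 0 became 9 without the filter, 17 with DESeq2, 13 with limma voom, 21 without that pair and 0 to 15 with 1 library left out, 15 without cKO EAE 3. The difference between responses called 2 ligands with limma voom. In cKO against control at EAE the count of 0 became 3 with DESeq2, 6 with limma voom and 0 to 8 with 1 library left out, 8 without cKO EAE 3. At basal it stayed 0 under every alternative run. Pairing of libraries by replicate number was not seen, though it is not excluded (same-number correlations of deviations ran from -0.458 to 0.371, and others from -0.477 to 0.494). The replicate block gave 0 ligands in the other comparisons. Over all genes the control response had 3183 calls, 11120 with limma voom, 8674 without the pair, 8149 in the 6 libraries and 1724 to 8166 leaving 1 out. The cKO response had 7, with 493 without the filter, 1239 with DESeq2, 3648 with limma voom, 2715 without the pair, 0 in the 6 libraries and 5 to 1074 leaving 1 out. The difference had 0, with 91 by DESeq2 and 2999 by limma voom. The genotypes at EAE had 1374, with 0 under the replicate block, 4131 by DESeq2, 5790 by limma voom, 0 with all 12 libraries and 0 to 3418 leaving 1 out, and at basal DESeq2 had 1. Of the log2 fold changes that changed sign, Ccl17 passed the test under 1 alternative, without the pair. In the cKO response Cx3cl1 (-0.04) was at 0.043 with the replicate block and -0.47 to 0.26 leaving 1 library out. Cxcl14 (0.02) was at -0.020 with DESeq2 size factors, -0.018 with DESeq2 and -0.022 in the 6 libraries, and at -0.16 to 0.13 leaving 1 out. Ccl17 (-0.68) was at 0.060 with the replicate block, 2.32 with limma voom, 2.61 without the pair and -1.25 to 2.31 leaving 1 out, 2.31 without cKO basal 2. At EAE Ccl25 (-0.03) was at -0.11 to 0.031 leaving 1 out, and Ccl28 (0.39) at -0.25 with limma voom and -0.090 to 0.68 leaving 1 out. The causes were not tested. The limits are the 3 libraries a group, the sex difference between the states, and depth, since ligands at 0 counts in basal libraries were not detectable at this depth rather than absent.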
